A study of Mus musculus with 14 samples.

Results

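The arrays described here are the 5 from unirradiated bone marrow, of 14 arrays in the series: 3 from mice given a radioprotective drug and 2 from mice given phosphate-buffered saline (PBS). They were chosen by their labels, to find microRNAs (miRNAs) that all 3 drugs placed on the same side of both vehicle arrays. Every mouse was a male C57BL/6 aged 6 to 8 weeks, and each array held pooled RNA of 3 mice, so each treatment had 1 pool. Amifostine (10 mg/kg) and CBLB502 (0.2 mg/kg) had been given into the abdomen (i.p.) 0.5 h before the time set for irradiation, and nilestriol (150 mg/kg) into the stomach (i.g.) 48 h before it, and the vehicle pools received PBS i.p. or i.g. All 5 pools had a dose of 0 Gy and were taken at the 12 h time point. The remaining bone marrow arrays, with the same 5 pretreatments and 8 Gy of gamma rays, serve below as the same contrast in other animals. Each level is the log2 of a miRNA's signal relative to the 75th percentile of 323 miRNAs (those detected on each of the 5 arrays), so 0 marks that percentile and -5.19 is the floor to which dimmer signals were raised.

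Amifostine is a thiol prodrug that scavenges radicals, CBLB502, derived from flagellin, is an agonist of Toll-like receptor 5, and nilestriol is a long-acting oestrogen; all are studied as protectors against radiation. A miRNA is a short RNA that guides the silencing complex to messenger RNAs, chiefly through its seed, the bases near its 5′ end, and miRNAs with the same seed share many targets. In marrow, miRNAs such as miR-223 in granulocytes, miR-451 in red cell precursors and the miR-99, miR-100 and miR-125 families in stem cells mark the stages of blood cell formation.

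The sequences below belong to miRNAs on which the results turn; they are mature sequences from RefSeq (GRCm38.p6), 5′ to 3′, with the seed (bases 2 to 8) in capitals. The first group, all with lower levels on the drug arrays, contains sets that share a seed: miR-27a and miR-27b, miR-26a and miR-26b, miR-15a, miR-15b and miR-16, miR-221 and miR-222, and miR-103 and miR-107.
miR-146b-5p: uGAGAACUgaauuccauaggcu
miR-24-3p: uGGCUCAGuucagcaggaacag
miR-23a-3p: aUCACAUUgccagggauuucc
miR-27a-3p: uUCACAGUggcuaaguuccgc
miR-27b-3p: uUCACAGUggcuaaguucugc
miR-26a-5p: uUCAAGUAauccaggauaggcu
miR-26b-5p: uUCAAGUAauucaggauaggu
miR-15a-5p: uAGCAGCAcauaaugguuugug
miR-15b-5p: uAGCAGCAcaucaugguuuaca
miR-16-5p: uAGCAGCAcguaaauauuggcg
miR-22-3p: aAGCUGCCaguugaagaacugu
miR-221-3p: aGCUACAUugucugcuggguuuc
miR-222-3p: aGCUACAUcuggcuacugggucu
miR-103-3p: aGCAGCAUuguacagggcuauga
miR-107-3p: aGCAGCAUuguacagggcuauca
miR-652-3p: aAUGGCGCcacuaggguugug
The second group had higher levels on the drug arrays, and no seed in it is shared.
miR-370-3p: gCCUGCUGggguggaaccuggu
miR-6392-3p: gACGCAGGuuugccggguccucu
miR-3473e: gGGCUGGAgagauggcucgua
miR-3058-3p: uUCCUGUCagccgugggugcc
miR-1945: uCUUCGCGgguacugucgggac
miR-188-5p: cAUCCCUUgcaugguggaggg
miR-1224-5p: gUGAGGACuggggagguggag

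Of 1247 miRNAs on the array, 348 to 403 were detected on each of the 5 arrays, with a median signal of 43.6 to 63.6 intensity units and no saturated miRNA. The 7 marrow markers (miR-223-3p, miR-142-3p, miR-150-5p, miR-451a, miR-144-3p, miR-155-5p and miR-181a-5p) were detected on every array, whereas the nerve cell markers miR-124-3p and miR-9-5p, the hepatocyte marker miR-122-5p, the epithelial markers miR-200a-3p and miR-141-3p, and the stromal marker miR-145a-5p were detected on none. Other markers of these tissues were detected: on all 5 arrays miR-128-3p of nerve, miR-200c-3p of epithelium, miR-199a-3p and miR-126-3p of stroma and endothelium and miR-1a-3p of muscle, on 4 arrays the muscle miR-133a-3p, and on 1 array each the muscle miR-206-3p and the stromal miR-143-3p. The PBS and CBLB502 arrays lay on slide 1 and the amifostine and nilestriol arrays on slide 2, each slide being a scan batch, so an effect of amifostine or nilestriol and one of the slide cannot be told apart. Nilestriol was the array least like the others: its correlation across the 397 tested miRNAs (Pearson's r, a description of arrays that share their probes) was 0.951 to 0.971 with the other 4, against 0.994 between the PBS arrays and 0.995 between amifostine and CBLB502, which lay on different slides.

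No miRNA passed the test of the 3 drug arrays against the 2 PBS arrays. Among 397 tested miRNAs (detected on at least 2 of the 5 arrays), limma called 0 at an adjusted p of 0.05 (0%), with a lowest adjusted p of 0.0863 and 125 miRNAs at an unadjusted p under 0.05. The count changed with the arrays and with the scaling. Without the nilestriol array limma called 147 of 374 miRNAs (39.3%), 93 higher and 54 lower, while leaving out amifostine or CBLB502 gave 0. With all 5 arrays kept, limma called 45 with scaling to the 75th percentile over all miRNAs. It called 0 with scaling to the median of detected miRNAs. An exact permutation test of a single miRNA cannot go below p = 0.1 here, since 2 of 5 arrays can be chosen in 10 ways. Because each treatment had 1 pool, these tests measure only the spread among pools of different treatment.

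By order alone, the drug arrays stood on the same side of both PBS arrays for 248 of the 397 tested miRNAs (62.5%). All 3 drug arrays lay above both PBS arrays for 122 miRNAs (30.7%) and below both for 126 (31.7%). Of the 122 higher miRNAs, 21 were detected on no PBS array; they passed the detection filter through the drug arrays and could only be higher, whereas each of the 126 lower miRNAs was detected in both groups. Among the 323 miRNAs detected on all 5 arrays, 94 were higher (29.1%) and 117 lower (36.2%). The higher set had a median drug minus PBS difference of 0.63 (range 0.16 to 1.37) and the lower set of -0.51 (range -1.15 to -0.12), and the median over all tested miRNAs was 0.16. The PBS arrays differed from each other by a median of 0.19. A stricter count required a gap of at least 0.5 between the nearest drug and PBS arrays and a gap wider than the distance between the PBS arrays: 16 miRNAs were then higher (4.03%), 5 of them detected on no PBS array, and 4 lower (1.01%). That strict count, 20 in all, became 80 without nilestriol (17.4% of 374 higher and 4.01% lower), 49 without CBLB502 and 30 without amifostine. It became 71 without the i.g. PBS array and 27 without the i.p. PBS array. Leaving out an array eases the rule, apart from changes in scaling and filter, and with 1 PBS array no PBS distance limits the gap. Rises were thus built into the rule, and their sizes do not measure the part of any array.

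The drug arrays did not contribute alike. Nilestriol lay farthest from the PBS arrays for 64 of the 122 higher and 84 of the 126 lower miRNAs, amifostine for 30 and 13, and CBLB502 for 28 and 29. In the lower set the median difference from the PBS mean was -0.40 for amifostine, -0.39 for CBLB502 and -0.64 for nilestriol. In the higher set it was 0.59, 0.52 and 0.63. CBLB502 shared its slide with both PBS arrays. Within that slide the sign of the difference was kept by all 122 higher and all 126 lower miRNAs, as their choice requires. With slide as a block limma called 0 of 397, with 59 at an unadjusted p under 0.05. The difference in that fit is CBLB502 minus the PBS mean, since the other drug arrays lay on the other slide.

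The 12 lower miRNAs with the widest gaps held both bright and dim ones. miR-24-3p, made from the miR-23a cluster and its paralog and known to act on the cell cycle, had levels of 1.40 and 1.47 on the i.p. and i.g. PBS arrays, and of 0.87, 0.83 and 0.85 after amifostine, CBLB502 and nilestriol. The 3 drug arrays nearly coincided, 0.53 below the nearer PBS array, and the groups differed by a mean of -0.58 ± 0.08 (SE; limma adjusted p = 0.0887). miR-146b-5p, which dampens Toll-like receptor signalling, had -1.83 and -1.74 with PBS and -2.42, -2.38 and -2.48 with the drugs. It differed by -0.64 ± 0.09 (limma adjusted p = 0.0887), and against the PBS mean it was -0.59 after CBLB502, the Toll-like receptor agonist, and -0.63 and -0.70 after amifostine and nilestriol. Its seed partner miR-146a-5p overlapped between groups: -0.55 and -0.78 with PBS, and -0.94, -0.50 and -1.73 with the drugs.

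miR-23a-3p and miR-27a-3p are made from the same transcript as miR-24-3p, on chromosome 8 (8:84208563-84208583 and 8:84208727-84208747, with miR-24-3p at 8:84208875-84208896, all on the plus strand and in no protein-coding gene of the table). miR-23a-3p had levels of 2.28 and 2.32 with PBS and of 1.80, 1.58 and 1.82 with amifostine, CBLB502 and nilestriol. miR-27a-3p had 1.18 and 1.39 with PBS and 0.58, 0.43 and 0.70 with the drugs. For both, CBLB502 was the lowest array, and no drug array came within 0.46 of a PBS array. Of the 4 tested miRNAs of this cluster, 3 were lower without overlap, and miR-23a-5p overlapped. The paralogous miR-27b-3p, in Aopep on chromosome 13, was also below both PBS arrays on all 3 drug arrays (-0.54 ± 0.12; limma adjusted p = 0.0930).

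miR-26a-5p, which targets the histone methyltransferase gene Ezh2 and lies in introns of the Ctdsp phosphatase genes, had levels of 2.78 and 2.75 with PBS and of 2.27, 2.06 and 2.08 with the drugs. miR-26b-5p, with the same seed and also in a Ctdsp gene (Ctdsp1), had 2.34 and 2.37 with PBS and 1.93, 1.66 and 1.82 with the drugs. In both, the PBS arrays nearly coincided and amifostine was the nearest drug array. miR-22-3p, abundant in blood cells and linked to stem cell self-renewal, had 0.72 and 0.80 with PBS and 0.03, 0.23 and -0.01 with the drugs. miR-221-3p, which represses the stem cell factor receptor Kit, had -0.64 and -0.75 with PBS and -1.22, -1.22 and -1.58 with the drugs. Its neighbour and seed partner on the X chromosome, miR-222-3p, had -1.28 and -1.50 with PBS and -2.00, -1.83 and -2.53 with the drugs, nilestriol being lowest for both. miR-652-3p, in Tmem164 on the X chromosome, had 0.78 and 0.83 with PBS and 0.10, -0.04 and 0.30 with the drugs.

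The remaining miRNAs among the 12 widest lower gaps were miR-467a-5p, miR-467b-5p, miR-744-5p and miR-15b-3p, all dim. miR-467a-5p, of the Sfmbt2 type families, had -4.42 and -4.28 with PBS and -5.19, -5.19 and -5.15 with the drugs, so amifostine and CBLB502 were at the floor. Over the 12 named lower miRNAs the limma adjusted p ranged from 0.0863 to 0.0948 and the difference from -0.56 to -0.83.

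Among the higher miRNAs, the 12 with the widest gaps were dim, and few have a well known function. Among those detected on all 5 arrays were miR-3058-3p, in Nudt4 on chromosome 10, and miR-1945. miR-3058-3p had -4.25 and -4.15 on the PBS arrays and -3.39, -3.49 and -3.37 on the drug arrays (0.79 ± 0.09, limma adjusted p = 0.0863). miR-1945 had -4.36 and -4.40 against -3.63, -3.71 and -3.48. Within each of these the drug arrays lay closer to one another than to the PBS arrays, which a choice by the widest gap favours. The differences of miR-3058-3p and miR-1945 were below 0 with scanner software totals (-0.99 and -0.79). They were also below 0 with normexp background correction (-0.0095 and -0.041). miR-3090-5p, miR-546, miR-1931, miR-1957a and miR-696 had differences of 0.72 to 1.07. Of these, miR-546, miR-1931 and miR-696 were also detected on all 5 arrays, and miR-3090-5p and miR-1957a on all 3 drug arrays and 1 PBS array. miR-696 was at the floor on both PBS arrays, so its difference (0.72) is against the floor. miR-3090-5p was at the floor on the i.p. PBS array. The other 5 of the 12, miR-3057-5p, miR-1981-5p, miR-3113-5p, miR-193b-5p and miR-99b-3p, were detected on all 3 drug arrays and on neither PBS array. They passed the detection filter only through the drug arrays and could only be higher, so their direction supports nothing. With the PBS arrays taken at the floor, or at the miRNA's own signal where that was above it, the bound on their fold difference was 1.79 to 2.16. This bound depends on the floor and background used. With normexp background correction all 5 differences were just below 0, from -0.062 (miR-3113-5p) to -0.0071 (miR-1981-5p). miR-3057-5p was at the floor of -5.19 on both PBS arrays and at -4.12, -4.25 and -4.21 with the drugs.

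**Figure D1:**
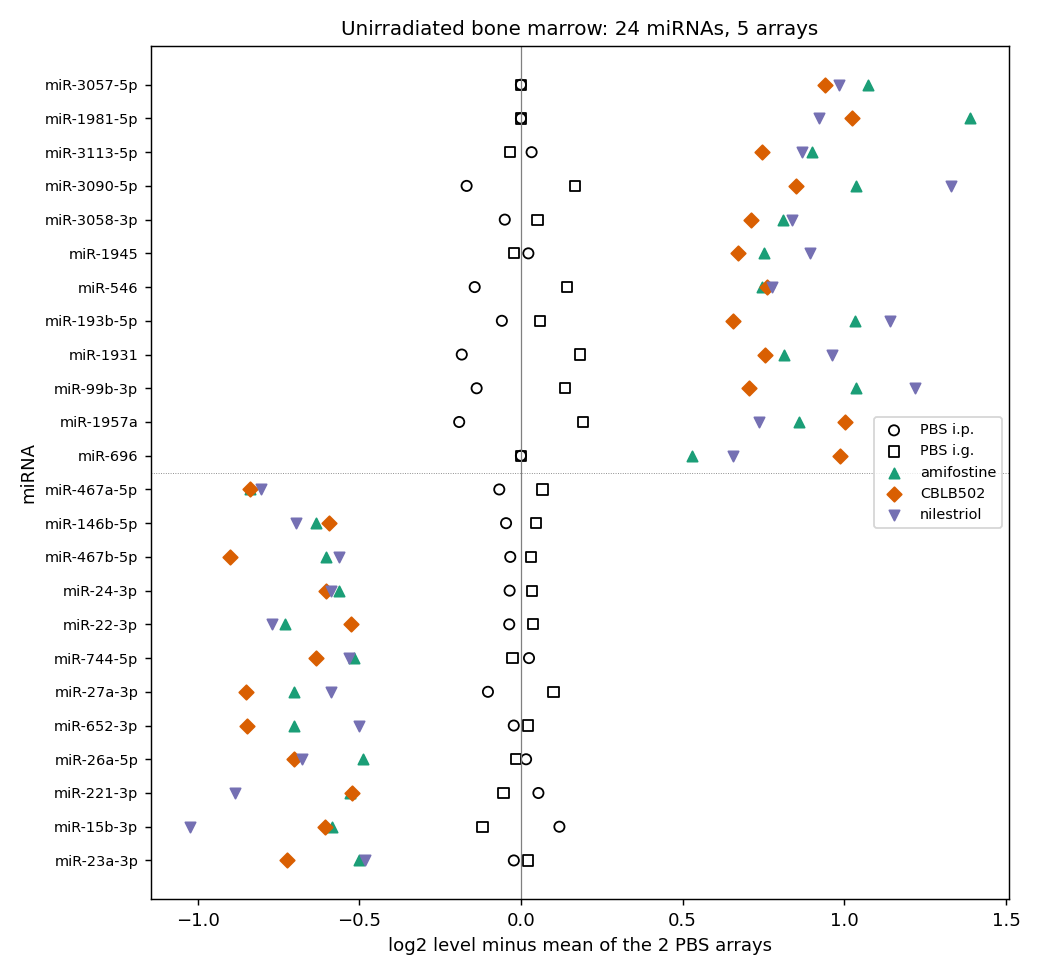
Level of the 12 higher and 12 lower miRNAs with the widest gaps, on each of the 5 unirradiated bone marrow arrays, as log2 level minus the mean of both PBS arrays (horizontal axis). Open black symbols are the PBS arrays and filled symbols the drug arrays, 1 pool of 3 mice each; no drug symbol reaches a PBS symbol, as the choice of these miRNAs requires, and for miR-24-3p the drug symbols nearly coincide.

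The higher set also held brighter miRNAs. miR-370-3p, of the imprinted Dlk1-Dio3 region on chromosome 12, had -1.17 and -0.93 with PBS and -0.39, -0.43 and 0.01 with the drugs. miR-188-5p, in Clcn5 on the X chromosome, had 0.19 and 0.35 with PBS and 0.85, 0.67 and 0.95 with the drugs. miR-6392-3p, in Pnpla3, had -1.43 and -1.34 with PBS and -0.83, -0.76 and -0.38 with the drugs. miR-3473e, in Rbks, had -0.65 and -0.64 with PBS and -0.16, -0.13 and 0.23 with the drugs. In all of these the nilestriol array was the highest. The same held for miR-1224-5p, a mirtron (a miRNA hairpin spliced out as a whole intron) of Vwa5b2 and one of the brightest signals, with 4.59 and 4.76 on the PBS arrays and 5.16, 5.26 and 6.18 on the drug arrays.

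Most tested members of several known families lay on the lower side. Lists of miRNAs by function or family are described here by the members whose groups did not overlap. Over all tested miRNAs 31.7% were lower and 30.7% higher in this way. Among the miRNAs detected on all 5 arrays 36.2% were lower. The lower share also went with the GC content of the probes: 58.1% at up to 45% GC and 47.5% at 45 to 55%. The part of probe GC in the counts of the lists was not tested. No list member passed limma at an adjusted p of 0.05. Some miRNAs stand in several lists, so the counts of the lists are not separate results. Of 13 tested progenitor miRNAs 12 were lower, with a median difference of -0.73. In this list miR-99a-5p had -2.69 and -2.45 with PBS and -3.29, -3.10 and -3.73 with the drugs, and miR-125b-5p, which sustains stem cell survival and had the lowest difference (-0.87 ± 0.39), had -1.34 and -1.01 against -1.93, -1.52 and -2.68. miR-126-5p, detected on both PBS arrays and on 0 drug arrays, was at the floor on every drug array and on the i.p. PBS array. The Hox-cluster miRNA miR-10a-5p showed the opposite order of drugs, with -0.58 and -0.54 on the PBS arrays and -1.56 and -1.76 after amifostine and CBLB502 but -0.65 after nilestriol.

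The let-7 family, whose members restrain growth and lineage plasticity, had 8 of 9 tested members lower, and let-7e-5p overlapped. Its median was -0.47 (-0.28, -0.28 and -0.85 for amifostine, CBLB502 and nilestriol against the PBS mean), and -0.15 with the trend of signal with probe GC content removed from each array. The miR-30 family had 6 of 6 lower (median -0.49), with miR-30b-5p at 0.82 and 0.81 on the PBS arrays and 0.41, 0.22 and 0.25 on the drug arrays. In the miR-15/16 family, which represses Bcl2 and cyclins, 5 of 6 were lower (median -0.54). miR-16-5p had 4.63 and 4.44 with PBS and 4.13, 3.99 and 3.84 with the drugs, and miR-15a-5p had 2.81 and 2.82 against 2.39, 2.23 and 2.21; miR-497-5p overlapped. The proliferation-linked miR-17-92 cluster and its paralogs had 9 of 12 lower (median -0.42), from miR-93-5p (-0.55 ± 0.15) to miR-19a-3p, which overlapped (-0.07 ± 0.20).

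Lineage miRNAs were less uniform. Of 8 myeloid miRNAs 4 were lower (median -0.58), among them miR-223-3p, with 6.15 and 6.14 on the PBS arrays and 5.46, 5.06 and 6.00 on the drug arrays; miR-142-3p overlapped (-0.22). Of 9 megakaryocyte and platelet miRNAs 7 were lower (median -0.64), and all of these but miR-22-3p stand in other lists too. miR-191-5p lay at the floor on 4 arrays and at -5.17 on the i.p. PBS array. Lymphoid miRNAs had 4 of 9 lower (median -0.42): miR-181c-5p lay lowest (-0.54), while miR-150-5p and miR-155-5p overlapped. Erythroid miRNAs had 2 of 6 lower, a share near the 31.7% of all tested miRNAs; the median was -0.44 (-0.15, -0.09 and -0.88 for amifostine, CBLB502 and nilestriol), and -0.13 with the probe GC trend removed. miR-451a had 7.11 and 6.85 with PBS and 6.82, 6.80 and 5.71 with the drugs, so amifostine and CBLB502 lay just under the i.g. PBS array and nilestriol far below it, and the difference was -0.53 ± 0.41.

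The mesenchymal and endothelial list, which shares miR-126-3p, miR-126-5p, miR-10b-5p and miR-100-5p with the progenitor list, had 8 of 10 lower and the lowest median (-0.75). miR-199a-5p, made in mesenchymal cells, had -3.30 and -2.83 with PBS and -4.09, -3.37 and -5.19 with the drugs, and miR-126-3p, an endothelial and stem cell miRNA, had -0.45 and -0.03 against -1.04, -0.51 and -1.66. For both, CBLB502 lay just under the i.p. PBS array and nilestriol was lowest. Summed over the 4 stromal and endothelial markers the log2 level was 0.08 and 0.49 with PBS and -0.51, 0.02 and -1.15 with the drugs, and summed over the 7 marrow markers it was 7.78 and 7.65 against 7.40, 7.30 and 6.98. Both sums were thus below the PBS arrays on all 3 drug arrays, and their part in the other differences was not tested. The marrow sum mostly reflects miR-451a and miR-223-3p, its brightest markers. Each of the other marrow markers (miR-142-3p, miR-150-5p, miR-144-3p, miR-155-5p and miR-181a-5p) overlapped between the groups. In pooled marrow, fewer cells of a type and less RNA per cell cannot be told apart.

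Lists tied to the drugs' own pathways did not stand on the side opposite to the rest. The inflammation list (miRNAs linked to Toll-like receptor and NF-kB signalling) shares miR-222-3p and miR-125b-5p with the progenitor list. Of its 7 tested members 3 were lower, these 2 among them, and miR-212-3p alone was higher (0.26 ± 0.17). The median was -0.39 (-0.39, -0.07 and -0.75 for amifostine, CBLB502 and nilestriol), and -0.10 with the probe GC trend removed. Of the oestrogen-linked list 5 of 8 were lower (median -0.52), miR-222-3p being lowest and miR-378a-3p overlapping at 0.21. Its lower members miR-221-3p and miR-222-3p are in the progenitor list too. Of the oxidative stress and hypoxia list 4 of 5 were lower (median -0.51), from miR-27b-3p to miR-144-3p, which overlapped. The p53 responsive list had 4 of 4 lower (median -0.47), with miR-34a-5p, a direct p53 target, at -1.90 and -2.06 on the PBS arrays and -2.36, -2.12 and -2.78 on the drug arrays; miR-194-5p was lowest and miR-192-5p highest of this list, at -0.55 and -0.43.

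Few members of the lists of other tissues passed the detection filter: 3 of 5 for muscle, 2 of 4 for hepatocytes, 2 of 10 for nerve cells and 1 of 8 for epithelium. Both tested hepatocyte miRNAs (miR-148a-3p and miR-192-5p), both tested nerve cell miRNAs (miR-128-3p and miR-7a-5p) and the epithelial miR-200c-3p (-0.32) were lower without overlap, and 0 of the 3 muscle miRNAs were, with medians of -0.10, 0.37 and -1.28 after amifostine, CBLB502 and nilestriol. On the higher side stood the list of mirtrons and GC-rich, late annotated miRNAs, with 16 of 35 higher, 2 lower and a median of 0.46, from miR-1224-5p (0.85 ± 0.37) to miR-6366 (-0.58). Of the 13 tested Sfmbt2 type miRNAs 3 were lower, 0 higher and 10 overlapped; the median was 0.21, and -0.05 with normexp background correction, between miR-467b-5p (-0.69) and miR-466g (0.53). This list as written leaves out miR-467a-5p, which was lower (-0.83).

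List medians also moved by over 1.5 times under other settings. With the probe GC trend removed the median was -0.35 for the myeloid list, -0.36 for megakaryocytes and platelets, -0.32 for the miR-15/16 family, -0.31 for the p53 list, -0.30 for the oestrogen list, -0.19 for hepatocytes, -0.14 for nerve cells, 0.31 for the mirtron list and 0.41 for the Sfmbt2 list. With normexp background correction it was -0.42 for the progenitor list, -0.32 for the mesenchymal and endothelial list, -0.30 for the oxidative stress and hypoxia list and 0.19 for the mirtron list, and in the authors' value table it was -0.23 for the miR-17-92 list. Of the 20 lists, the Sfmbt2 list alone changed the sign of its median among the 7 settings of scaling, background and probe GC compared.

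**Figure D2:**
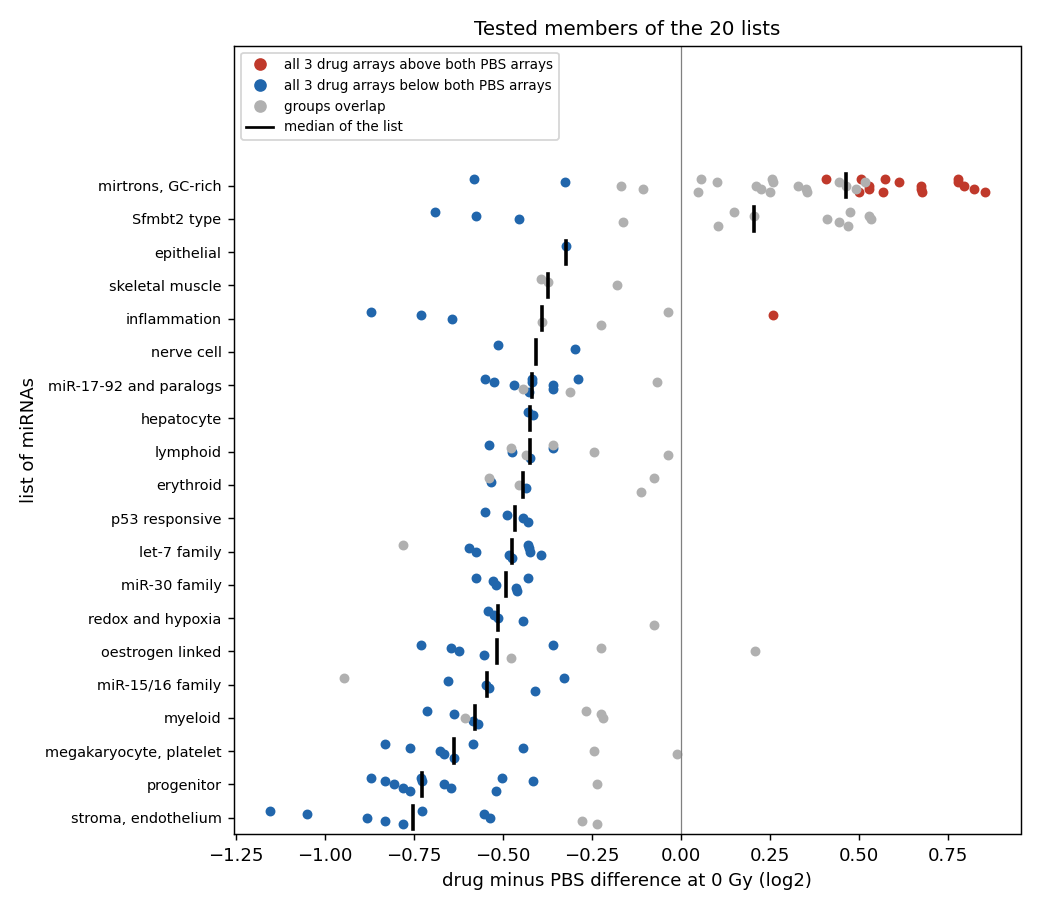
Drug minus PBS difference at 0 Gy (log2, horizontal axis) of the tested members of the 20 lists, sorted by the median of the list (black bar). Blue points lay below both PBS arrays on all 3 drug arrays, red points above both, and grey points overlapped; 18 lists have a median below 0, and the mirtron and GC-rich list holds nearly all the red points.

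Neighbouring miRNAs did not always share a side. RefSeq gave a position for 306 of the 397 tested miRNAs. Some of these lay in 18 clusters of at least 3 tested miRNAs, each within 10 kb of the next on 1 strand. In 3 clusters every tested member was lower: 4 of 4 of the miR-106b cluster (5:138165332-138165807), 3 of 3 of the miR-15b cluster (3:69009775-69009939) and 3 of 3 of the let-7a, let-7d and let-7f cluster. In 7 clusters some members were lower and the rest overlapped, among them the miR-17-92 cluster (14:115043684-115044496) with 7 of 8 lower. In 5 clusters members stood on opposite sides, among them that of miR-322 and miR-503, with 3 of 6 lower and 2 higher. The cluster of miR-181a and miR-181b had 0 of 3 on either side, and that of miR-3102 had 2 of 3 higher. In the Dlk1-Dio3 region (12:109611556-109618326), miR-341-3p, miR-370-3p and miR-1188-5p all lay higher (median 0.78), but miR-341-3p and miR-1188-5p were detected on no PBS array and passed the filter through the drug arrays. Where both arms of a hairpin were tested (42 hairpins), both were lower in 11 and both higher in 2. In 4 hairpins the arms stood on opposite sides: in miR-125a and miR-149 the 5p arm was lower and the 3p arm higher, and in miR-652 and miR-3096b the reverse. miR-652-5p thus had -2.19 and -1.88 on the PBS arrays and -1.75, -1.57 and -1.40 on the drug arrays, opposite to miR-652-3p.

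The direction went with the base composition of the probes. The probes of the higher miRNAs had a median GC content of 65.5% and those of the lower miRNAs 45.9%, with 54.8% over all tested miRNAs. Of 86 miRNAs with probe GC up to 45%, 58.1% were lower and 5.81% higher; of 110 above 65%, 3.64% were lower and 60.0% higher. Spearman's rho between the difference and probe GC was 0.49 over 397 miRNAs measured on the same 5 arrays, and it was 0.44, 0.45 and 0.51 for the single drugs against the PBS mean, CBLB502 (0.45) sharing the slide of the PBS arrays. Between the PBS arrays (i.g. minus i.p.) it was 0.17. The part of probe composition in the differences was not tested; with the probe GC trend removed from each array, 190 miRNAs did not overlap and limma called 0.

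**Figure D3:**
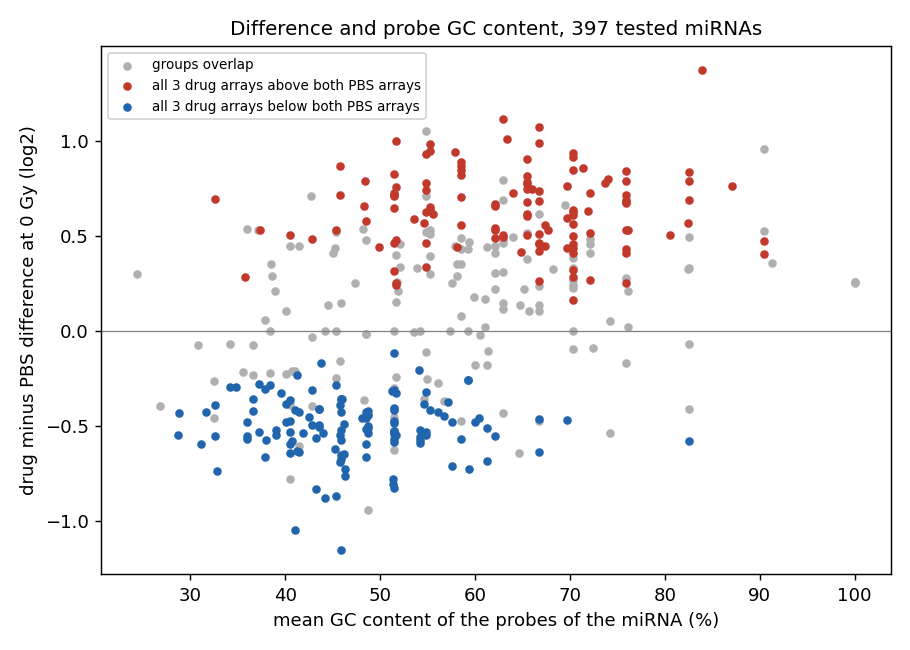
Drug minus PBS difference at 0 Gy (log2, vertical axis) against the mean GC content of a miRNA's probes (%, horizontal axis), 1 point per tested miRNA. Blue points lay below both PBS arrays on all 3 drug arrays and red points above both; blue points gather at low and red points at high GC, with a rho of 0.49.

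The same contrast at 8 Gy, in other pools on the same slides, gave no call either. There limma called 0 of 385 miRNAs (0%; 30 at an unadjusted p under 0.05), and all 3 drug arrays lay above both PBS arrays for 22.6% and below both for 7.79%. Of the 122 higher miRNAs, 113 were tested at 8 Gy: 48 of them were higher there too and 0 lower, against 23.2% higher among the 371 miRNAs tested at both doses, and their median difference was 0.30. Of the 126 lower miRNAs, 124 were tested: 25 were lower there too and 0 higher, against 7.82% lower, with a median of -0.15. The 8 Gy difference also went with probe GC, with a Spearman's rho of 0.35 over the 371 miRNAs. The part of probe GC in the shared direction at both doses was not tested. A test of the difference between doses (limma, interaction of drug and dose over 10 arrays) called 0 of 387 (0%), with 14 at an unadjusted p under 0.05.

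Among single miRNAs, miR-146b-5p was below both PBS arrays at 8 Gy too, with -1.53 and -1.62 on the PBS arrays and -1.89, -2.01 and -2.09 on the drug arrays. miR-24-3p had 1.41 and 1.32 with PBS and 1.13, 0.62 and 1.17 with the drugs, CBLB502 being lowest. miR-22-3p overlapped at 8 Gy, with 1.47 and 1.08 against 1.29, 0.98 and 0.97, and so did miR-3058-3p. The progenitor list, with 12 of 13 lower at 0 Gy, had 1 of 13 lower at 8 Gy (median -0.15), and the let-7 family 0 of 9 (median -0.10). The Sfmbt2 list had 7 of 12 higher and 2 lower at 8 Gy (median 0.96, against 0.21 at 0 Gy), and the muscle list 1 of 3 higher (median 0.55, against -0.37). Because the sets were chosen for their separation at 0 Gy, the sizes of their differences at both doses cannot be compared. Fitting all 10 bone marrow arrays together, which pools the spread of both doses, limma called 5 of 387 miRNAs (1.29%) for the 0 Gy contrast: miR-146b-5p (-0.65 ± 0.10, adjusted p = 0.0355), miR-1839-5p (-0.59 ± 0.09, 0.0355) and miR-467a-5p (-0.72 ± 0.11, 0.0355) were lower, and miR-1945 (0.76 ± 0.14, 0.0489) and miR-1981-5p (0.99 ± 0.18, 0.0489) were higher. miR-1981-5p was at the floor on both 0 Gy PBS arrays and detected on neither, so its difference is against the floor, and miR-467a-5p was at the floor on 2 of the drug arrays.

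**Figure D4:**
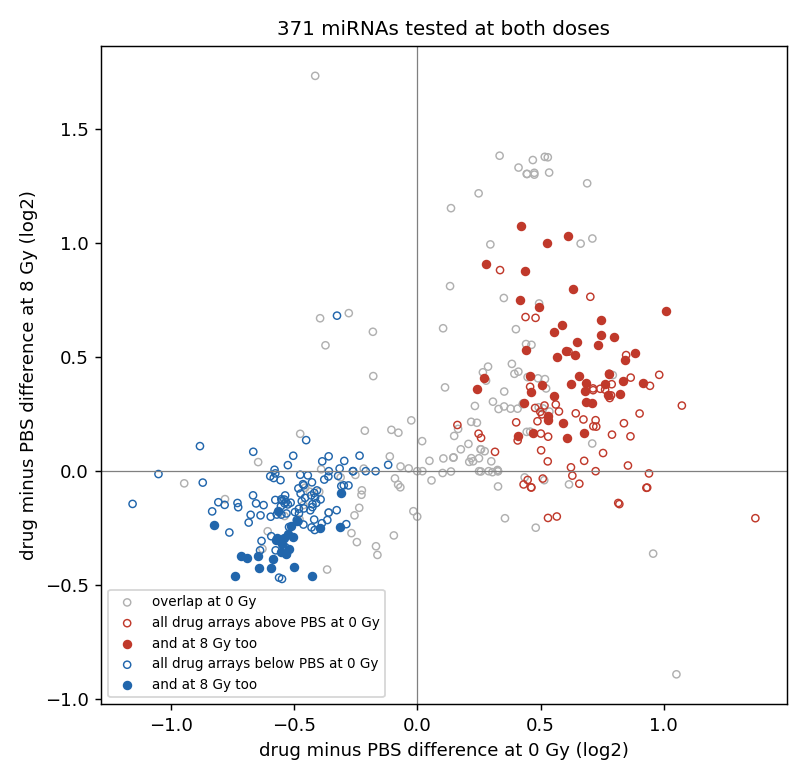
Drug minus PBS difference (log2) at 0 Gy (horizontal axis) and at 8 Gy (vertical axis) for the 371 miRNAs tested at both doses. Colours give the side at 0 Gy and filled symbols the miRNAs on the same side at both doses, 48 higher and 25 lower; the median 8 Gy difference is 0.30 for the red and -0.15 for the blue symbols.

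Drugs also parted from one another. For 51 miRNAs at least 1 drug array lay above and another below both PBS arrays; 47 of these were detected on all 5 arrays. The widest span belonged to miR-133b-3p, a skeletal muscle miRNA, with -3.22 and -3.85 on the PBS arrays and -3.60, -3.17 and -4.96 after amifostine, CBLB502 and nilestriol. The muscle miR-1a-3p had -2.75 on both PBS arrays and -2.95, -2.46 and -4.03 with the drugs. The erythroid miR-144-3p had -0.88 and 0.01 with PBS and -0.57, 0.30 and -1.26 with the drugs, and miR-677-5p had -3.68 and -3.63 against -2.92, -2.70 and -4.28. In all 4 CBLB502 was the highest drug array and nilestriol the lowest.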

How the data were processed

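The deposited scanner files hold a fluorescence intensity for every spot; per the file headers, Agilent Feature Extraction (version 10.7.1.1) wrote them. A deposited log2 value per miRNA and array was used as an alternative; how these values were scaled is not given in the sources used here. Processed signals were averaged per probe without outlier spots (4.42 to 5.27% of 49880 per array) and then per miRNA, divided by the 75th percentile of 323 miRNAs (those detected on each of the 5 arrays), raised to a floor (the median of the arrays' 5th percentile of detected signal; 9.32% of tested values) and taken to log2. A miRNA was tested where the scanner software called it detected on at least 2 of 5 arrays, or 4 of 10. The 3 drug arrays were set against the 2 PBS arrays with limma 3.58.1 (lmFit, eBayes, two-sided, Benjamini-Hochberg) in R 4.3.3 (tables read by version 1.17.8 of data.table); the code was tested on simulated data. Named are the 12 miRNAs of each direction with the widest gap (detected on every array of the higher group), the limma calls, from the lists the members with the highest and lowest difference and some of those without overlap, and the 4 with the widest span between drugs lying on opposite sides of the PBS arrays; other miRNAs were named after their values were seen. A bound is the drug mean over the PBS mean, each PBS signal being the higher of the floor and the miRNA's own. Another scaling moved the median difference over all miRNAs from 0.16 to 0.01 (percentile over all miRNAs), 0.03 (quantile), 0.08 (median) or 0.26 (none). The comparison, members and lists were chosen with earlier results of these data known. The 4 hypothalamus arrays were not used.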

Additional observations from a re-analysis of the deposited data

How the results depend on the processing

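The limma count of 0 at 0 Gy became 45 with the 75th percentile over all miRNAs, 10 in the authors' value table, 6 with detection on at least 1 array, 5 with all 10 bone marrow arrays, 4 with quantile normalization and 2 with scanner software totals, and ran from 0 to 147 when 1 array was left out. The number without overlap (248) stayed between 171 and 262 in the other settings with all 5 arrays. With 1 array left out it lay between 248 and 307. CBLB502 alone lay outside both PBS arrays for 306 of 355 miRNAs, which is not a count over all 3 drugs. Leaving out arrays eases this rule and the strict one, apart from changes in scaling and filter, so such rises were built in. The split moved: 73 higher and 146 lower with the percentile over all miRNAs, 114 and 61 with no scaling, and 39 and 132 with normexp background. The strict count (20) became 42 with the percentile over all miRNAs, 41 in the value table, 12 with detection on every array, 10 with no scaling or scanner totals, 4 with an offset instead of the floor, 0 with normexp or a gap of at least 1, and 27 to 80 with 1 array left out. At 8 Gy limma called 8 with the offset. The interaction gave 1 call each with scanner totals, the value table and detection on at least 1 array. All 3 drugs stayed on the same side in all 10 processing settings for 14 of the 122 higher and 35 of the 126 lower miRNAs, among the latter miR-146b-5p, miR-24-3p, miR-22-3p and miR-27a-3p.

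Dim miRNAs with a positive difference lost their sign with normexp. In the higher set these were miR-3057-5p -0.043, miR-1981-5p -0.0071, miR-3113-5p -0.062, miR-3090-5p -0.046, miR-3058-3p -0.0095 and miR-1945 -0.041. Others of the higher set were miR-193b-5p -0.042, miR-99b-3p -0.058, miR-1957a -0.048, miR-696 -0.010 and miR-212-3p -0.049. miR-677-5p (-0.028) and miR-466g (-0.045), whose groups overlapped, lost their sign too. Scanner totals reversed miR-3058-3p (-0.99), miR-1945 (-0.79), miR-546 (-0.17), miR-1957a (-0.35), miR-467b-5p (0.92), miR-744-5p (0.27), miR-133b-3p (0.18), miR-677-5p (-0.40), miR-1a-3p (1.50), miR-466g (-0.076), let-7e-5p (1.25) and miR-497-5p (2.69). Removing the probe GC trend, chosen after seeing the data, reversed miR-1a-3p (0.15), miR-144-3p (0.39), miR-142-3p (0.16), miR-155-5p (0.21), miR-126-5p (0.13), miR-19a-3p (0.34), miR-98-5p (0.046), miR-191-5p (0.037) and miR-7a-5p (0.10). With slide as a block the difference is that of the CBLB502 array alone from the PBS mean, not of all 3 drugs. It was 0.37 for miR-133b-3p, 0.29 for miR-1a-3p, 0.73 for miR-144-3p, 0.61 for miR-155-5p, 0.12 for miR-19a-3p, 0.38 for miR-133a-3p and 0.17 for miR-146a-5p. With no scaling miR-144-3p was 0.086, miR-155-5p 0.13 and miR-19a-3p 0.094. Against the PBS array of its own route miR-144-3p was 0.073 and miR-19a-3p 0.0072. With 1 array left out miR-133b-3p ran from -0.75 to 0.15, miR-1a-3p from -0.75 to 0.041, miR-144-3p from -0.53 to 0.37, miR-142-3p from -0.51 to 0.074, miR-155-5p from -0.37 to 0.32, miR-19a-3p from -0.30 to 0.16, miR-133a-3p from -0.52 to 0.16 and miR-150-5p from -0.40 to 0.022. The cause of these changes was not tested.

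No paired analysis was possible because the labels give the arrays no replicate numbers and each treatment has 1 array per dose; values against the PBS array of the same route and with slide as a block are given above. GC content from the miRNA's own sequence was not run, as RefSeq gave a sequence for 77.1% of tested miRNAs, under the 80% needed. The number of arrays and dim signals limit the precision.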
